A study of Mus musculus with 15 samples.

Results

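Collagens are the main structural proteins of the extracellular matrix, and their chain genes are named by a type number and a chain number. All rows of the count table whose gene name is Col, digits, a, digits were taken, with pseudogenes left out by their description, which gave 44 genes of the 57010 in the table. The study sequenced RNA from lungs of C57BL/J mice at day 30 and gave 15 libraries, split into 4 groups. Control mice (n = 4, replicates 1, 2, 4 and 7) received physiological saline. The DMSO group (n = 4, replicates 1, 4, 6 and 7) received a solution of dimethyl sulfoxide, an organic solvent. The silica group (n = 3, replicates 1, 2 and 7) received a silica suspension as nasal drops. The silica_DMSO group (n = 4, replicates 2, 4, 5 and 6) was given both agents, with DMSO following on the second day. Values listed for a group follow the order of these replicate numbers. Nothing in the labels ties a library to an animal of its own, so p-values here measure spread between libraries, which may be technical.

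A collagen molecule is a rope of 3 chains wound around each other, and most types combine the products of more than 1 gene. Fibrillar collagens, mainly types I, III and V in the lung, form the fibers of airway walls, vessels and scars, and are made mostly by fibroblasts. Type IV collagen forms the sheet of basement membranes beneath epithelium and endothelium, type VI forms beaded filaments near cell surfaces, and the smaller classes link fibers, fasten epithelium or cross the cell membrane. Inhaled silica is known for causing nodules and scars in which fibrillar collagen builds up.

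Some libraries stood apart before any collagen was considered. In DMSO 7, silica_DMSO 4 and silica_DMSO 6 the 8 thymocyte marker genes summed to between 2853 and 3504 TPM (a level per length of gene, scaled to a fixed total per library), against 1.89 to 27.8 TPM in the other 12 libraries. Foxn1, the defining factor of thymic epithelium, was listed at 0 in those 12. These 3 libraries are called thymus-like below, and each comparison is given with all 15 libraries and with the other 12. Among the 12, long genes stood low in control 1, DMSO 1, DMSO 4, silica 7 and silica_DMSO 5, where genes over 3000 bases took 11.5% to 24.2% of counts, against 34.0% to 44.9% in the other 7. Collagen genes run from 2097 to 11511 bases and 40 of the 44 exceed 3000, so this split touches nearly every value. The tissue label says lung, although the extraction text names retina. The summed alveolar type 2 markers of lung were at 16851 to 52631 TPM in the 12 libraries and at 261 to 13144 in the thymus-like ones. Silica 1 also stood apart from the other 11 lung libraries, with club cell markers at 58621 TPM against 212976 to 377056 and B and plasma cell markers at 3570 TPM against 171 to 2200. Library totals lay between 17434653 and 20829923 counts.

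Total collagen RNA differed more between libraries than between groups. The control libraries held 201, 328, 767 and 394 summed collagen TPM, and the DMSO libraries 135, 61.1, 349 and 158. The silica libraries held 999.7, 366 and 166, and the silica_DMSO libraries 585, 176, 60.1 and 68.1. Silica 1 was the highest library of all, and every other silica library lay within the control range or below it. The 5 libraries with few long-gene counts held 60.1 to 201 collagen TPM, the 3 thymus-like ones 68.1 to 176, and the remaining 7 held 328 to 999.7, so those 7 did not overlap with the other 8, while every pair of treatment groups overlapped. The part of gene length in these totals was not tested. In bulk tissue, fewer cells of a type and less RNA per cell cannot be told apart.

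**Figure D1:**
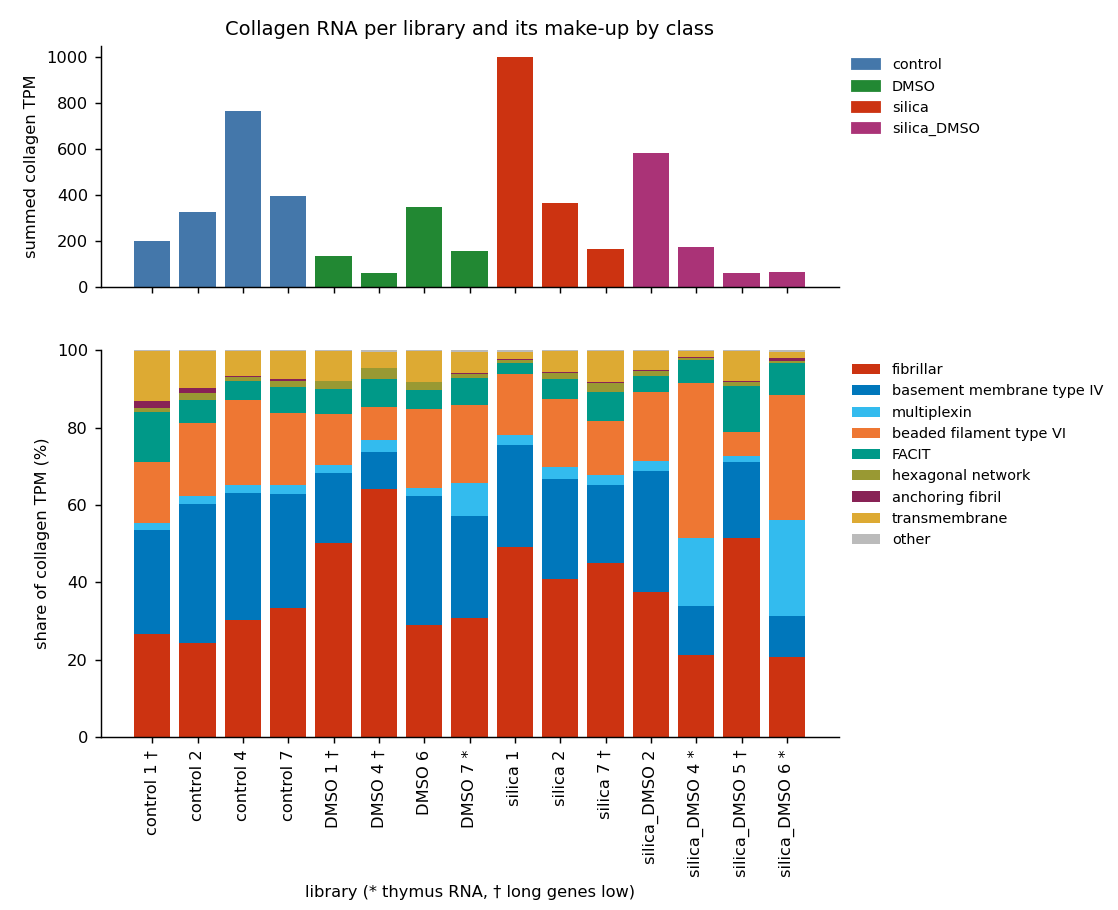
Summed TPM of the 44 collagen genes in each library (top, coloured by group) and the share of that sum in each class of collagen (bottom, percent). Silica 1 reaches 999.7 TPM, and fibrillar chains take 37.5% to 51.5% of collagen RNA in the 5 silica-exposed lung libraries that are not thymus-like. In the unexposed ones that are not thymus-like they take 24.4% to 64.0%, with DMSO 1 at 50.3% and DMSO 4 at 64.0%.

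The make-up of the collagen pool differed in a way that its total did not. Fibrillar chains took 26.6%, 24.4%, 30.4% and 33.3% of collagen TPM in the control libraries and 49.1%, 40.9% and 45.1% in the silica libraries, so that these groups did not overlap. The DMSO libraries were at 50.3%, 64.0%, 28.9% and 30.7%, and the silica_DMSO libraries at 37.5%, 21.3%, 51.5% and 20.6%. Among the 7 libraries with high long-gene counts, the 3 silica-exposed ones (silica 1, silica 2 and silica_DMSO 2) lay from 37.5% to 49.1% and the 4 unexposed ones (control 2, control 4, control 7 and DMSO 6) from 24.4% to 33.3%. Among the 5 libraries with low long-gene counts that order was lost, since DMSO 1 and DMSO 4 had 50.3% and 64.0% without silica, beside 45.1% in silica 7 and 51.5% in silica_DMSO 5. Type III alone took 5.78% to 13.4% of collagen TPM in controls and 24.0%, 19.1% and 24.7% in the silica libraries, while type I took 12.5% to 16.8% and 17.1% to 20.2%. Type IV took 27.0% to 35.8% in controls and 26.5%, 25.8% and 20.03% in silica. These shares are descriptions over the members and carry no test.

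In the control libraries the most abundant chain per length was Col4a1, at 53.0 ± 38.8 TPM (SD, n = 4), followed by Col1a2 at 47.7 ± 28.8, Col4a2 at 45.9 ± 28.7, Col3a1 at 43.1 ± 28.6 and Col6a1 at 40.0 ± 27.4. Neighbours in that order did not differ beyond their spread, and each pair of neighbours changed order between control libraries. In the silica libraries Col3a1 led at 117 ± 107 TPM (n = 3), ahead of Col1a2 at 66.1 ± 57.9 and Col4a1 at 59.0 ± 55.9. These SDs are between libraries. Within each silica library Col3a1 lay above both, at 240.0, 70.1 and 41.1 TPM. Col1a2 held 131, 45.2 and 21.5 TPM there, and Col4a1 121, 42.6 and 13.1. Of the 44 genes, 20 exceeded 10 TPM in at least 1 library, and 12 stayed below 1 TPM in every library. The filter on low counts was passed by 35 of the 44 and by 17879 of all 57010 genes. The 9 that did not pass were Col2a1, Col11a1, Col24a1, Col9a1, Col9a2, Col19a1, Col22a1, Col10a1 and Col25a1, several of them chains of cartilage. None of the 9 exceeded 43 counts or 0.75 TPM in any library.

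**Figure D2:**
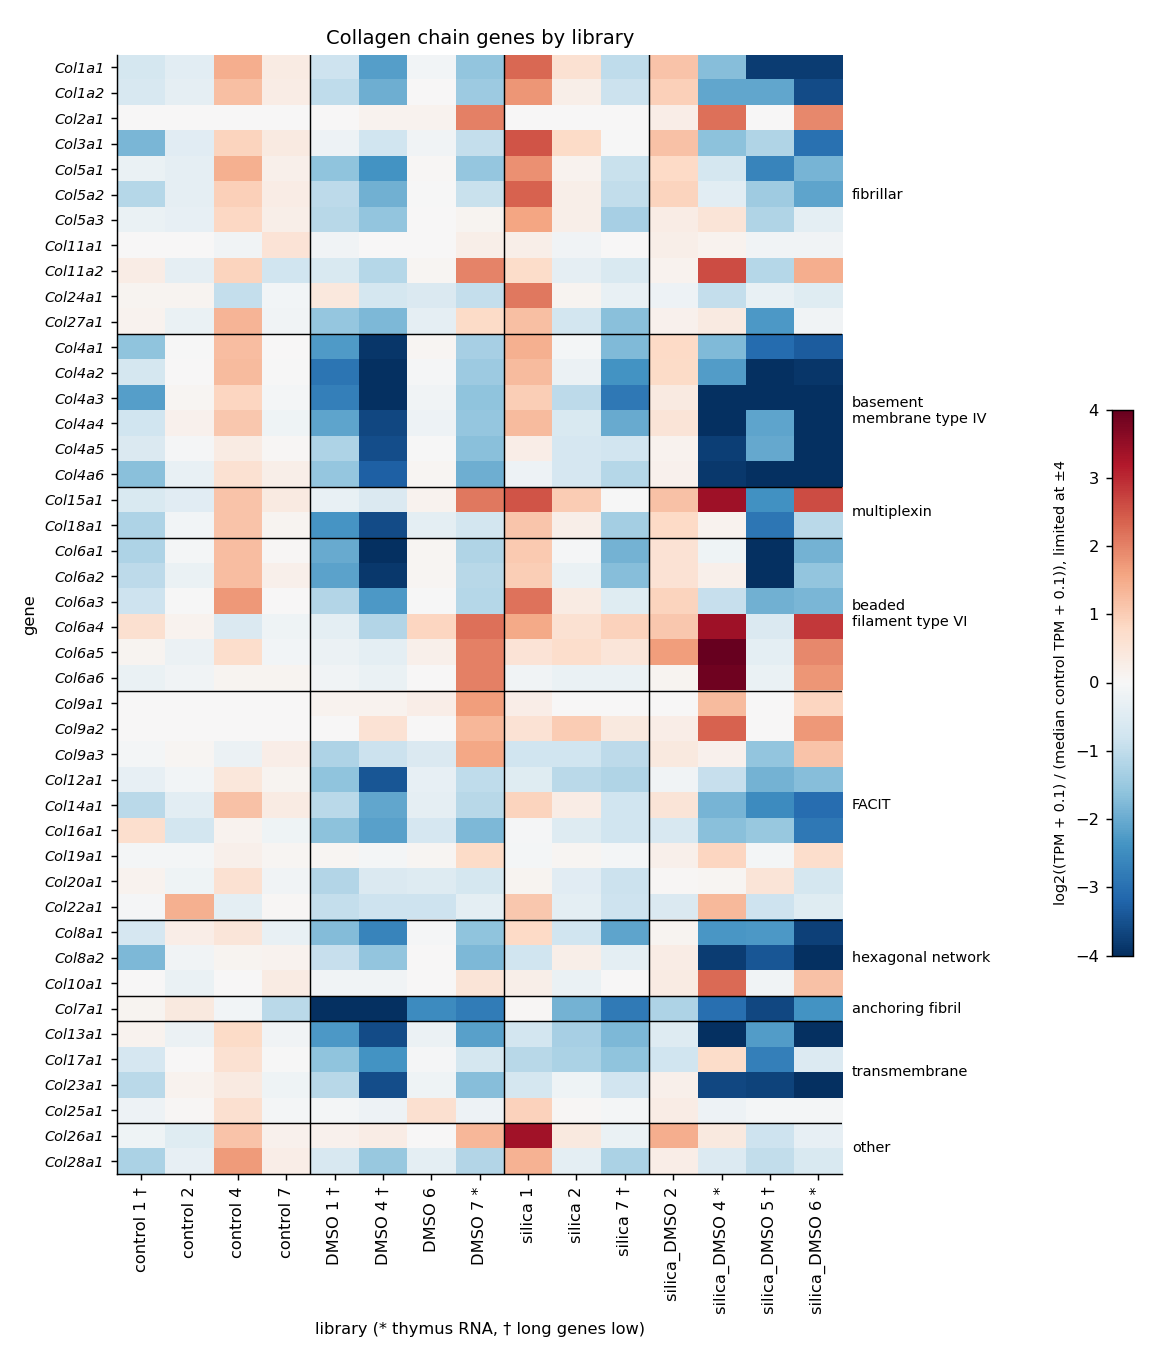
Level of each of the 44 collagen genes (rows, by class) in each library (columns, by group) as log2 of TPM + 0.1 relative to the control median, with the colour limited at 4 in either direction. Type IV chains are bluest in the libraries with few long-gene counts and the thymus-like ones, while Col15a1 and Col6a4 to Col6a6 are red in the thymus-like libraries.

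Among the fibrillar chains, Col1a1 and Col1a2 encode the chains of type I, the bulk of mature fibers and scars. Col1a1 (ENSMUSG00000001506) held 8.73, 10.8, 39.8 and 17.9 TPM in controls and 8.06, 3.04, 13.2 and 4.74 with DMSO. With silica it held 70.4, 22.2 and 7.03, and with silica and DMSO 32.0, 4.36, 0.94 and 0.94. Silica 1 lay above every other library, silica 7 lay below all controls, and the groups overlapped. Col1a2, at 24.9 to 88.5 TPM in controls and 131, 45.2 and 21.5 in silica, also had silica 1 highest and silica 7 below all controls.

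Col3a1 (ENSMUSG00000026043) encodes type III, a thin-fiber collagen laid down early in repair. It held 11.6, 30.0, 77.8 and 52.9 TPM in controls, 36.2, 23.7, 37.3 and 21.2 with DMSO, 240.0, 70.1 and 41.1 with silica, and 92.9, 13.1, 18.0 and 5.17 with silica and DMSO. On this scale silica and control overlapped. On normalised CPM (counts scaled to the library total and by TMM, which compares libraries rather than genes), all 3 silica libraries, at 744, 287 and 248, lay above the 4 controls, at 112, 103, 238 and 209, with the lowest silica library just above the highest control. DMSO 4, without silica, lay at 322 on the same scale. Col5a1 and Col5a2, whose type V chains sit inside the fibers and set their width, held 14.3 and 28.7 TPM in silica 1, above the 10.8 of the highest control for each. In silica 2 they held 4.29 and 6.46, within the control range, and in silica 7 they held 2.08, below every control, and 2.72. Col5a3, Col27a1 and Col11a2, less abundant fibrillar chains, stayed under 5 TPM in every library.

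**Figure D3:**
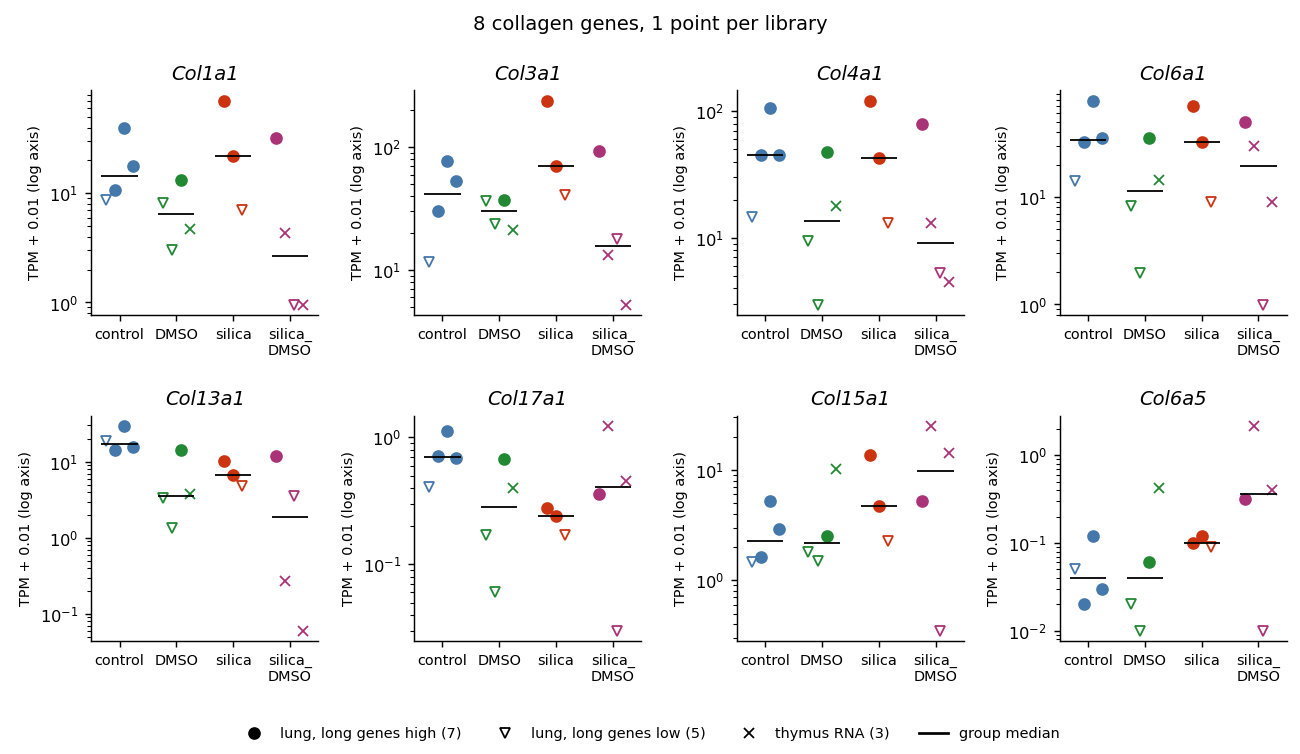
TPM of 8 collagen genes by group on a log axis, 1 point per library, with the symbol showing which libraries were thymus-like or had low long-gene counts and the bar giving the group median. Silica lies below control for Col13a1 and Col17a1 in every library, and the highest Col15a1 and Col6a5 values belong to thymus-like libraries.

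Type IV genes lie in pairs, head to head on opposite strands, and each pair can be switched on from the stretch between them. Col4a1 and Col4a2 encode the chains of nearly every basement membrane, Col4a3, Col4a4 and Col4a5 those of the alveolar one, and Col4a6 a chain found with Col4a5 in a few tissues. In the GENCODE M21 annotation of GRCm38, which need not be the build the counts were made with, Col4a1 lies at chr8:11198423-11312826 (minus strand) and Col4a2 at chr8:11312805-11449287 (plus strand), with their starts 21 bases apart. Col4a4 (chr1:82448423-82586849, minus) and Col4a3 (chr1:82586921-82722059, plus) start 72 bases apart, and Col4a6 and Col4a5 on chromosome X 1309 bases apart. RefSeq promoter windows, 250 bases before to 50 after each start (GRCm38.p6), were matched for 35 of the 44 collagen genes. The windows of the first pair are printed because both genes start in the region they share. They run along chr8:11312777-11313076 (minus) and chr8:11312555-11312854 (plus), 5′ to 3′ on each gene's own strand, with the 78 bases that both windows hold, on opposite strands, in capitals.
Col4a1: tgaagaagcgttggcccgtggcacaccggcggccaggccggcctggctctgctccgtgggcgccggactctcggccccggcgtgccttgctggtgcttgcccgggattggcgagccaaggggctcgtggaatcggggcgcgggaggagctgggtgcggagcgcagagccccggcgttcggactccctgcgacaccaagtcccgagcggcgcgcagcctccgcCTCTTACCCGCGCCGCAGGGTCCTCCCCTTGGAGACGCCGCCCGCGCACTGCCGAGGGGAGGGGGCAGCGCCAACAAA
Col4a2: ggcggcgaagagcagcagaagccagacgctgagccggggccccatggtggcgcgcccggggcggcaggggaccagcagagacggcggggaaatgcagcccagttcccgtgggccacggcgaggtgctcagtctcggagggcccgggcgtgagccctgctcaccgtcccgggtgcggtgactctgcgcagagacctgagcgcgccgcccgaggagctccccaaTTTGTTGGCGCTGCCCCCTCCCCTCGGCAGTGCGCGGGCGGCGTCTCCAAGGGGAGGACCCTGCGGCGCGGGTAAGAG
The window of Col4a4 (chr1:82586800-82587099, minus) is printed for the second pair, with the 179 bases that also belong to the Col4a3 gene in capitals.
Col4a4: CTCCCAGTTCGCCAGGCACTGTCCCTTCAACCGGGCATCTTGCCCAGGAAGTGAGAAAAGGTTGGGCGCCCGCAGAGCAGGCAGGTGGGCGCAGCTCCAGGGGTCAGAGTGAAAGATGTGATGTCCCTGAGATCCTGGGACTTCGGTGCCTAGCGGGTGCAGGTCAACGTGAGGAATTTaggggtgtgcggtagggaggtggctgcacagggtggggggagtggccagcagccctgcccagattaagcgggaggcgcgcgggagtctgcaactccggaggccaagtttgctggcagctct
The GC box core GGGCGG was searched on both strands and stood in 60.5% of the 38 collagen windows and in 35.7% of all 32851 windows. The Col4a1 and Col4a2 windows each hold it within their capitals, and each also holds the CCAAT core, which stood in 34.2% of collagen windows and 37.4% of all. The TATA core TATAAA stood in 13.2% and 13.6%. A match describes the letters only.

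Col4a1 (ENSMUSG00000031502) held 14.6, 45.0, 107 and 45.2 TPM in controls, 9.39, 2.94, 47.4 and 17.9 with DMSO, 121, 42.6 and 13.1 with silica, and 78.7, 13.1, 5.23 and 4.44 with silica and DMSO. The lowest value of each group came from a library with few long-gene counts or a thymus-like one, and the groups overlapped. Col4a3, the alveolar chain, held 2.40, 12.1, 20.6 and 10.7 TPM in controls and 22.6, 5.47 and 1.48 in silica. In silica_DMSO it held 14.6, 0.03, 0.46 and 0.01, where the values of 0.03 and 0.01 belong to the thymus-like libraries 4 and 6. Col4a4 held 2.77 to 10.4 TPM in controls and 1.13 to 11.9 in silica, and Col4a5 held 11.1 to 20.7 and 9.64 to 19.6. Col4a6 was lowest of the class, at 0.72 to 3.86 in controls and 1.09 to 2.18 in silica, so silica overlapped with control for all 3. The summed alveolar type 1 markers, genes of the thin gas-exchange cells that make much of that membrane, were at 78.4 and 31.6 TPM in those libraries and at 2635 to 3221 in controls.

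Type VI collagen has 3 main chains, Col6a1, Col6a2 and Col6a3, and 3 further ones on chromosome 9, Col6a4, Col6a5 and Col6a6, that can stand in for the third. Col6a1 held 14.1, 32.1, 78.7 and 35.1 TPM in controls, 69.7, 32.2 and 8.91 in silica, and 50.3, 29.9, 0.98 and 8.91 in silica_DMSO. Col6a2 lay at 12.6 to 62.1 TPM in controls and 8.02 to 51.6 in silica, and Col6a3 at 4.45 to 26.9 and 5.75 to 36.3, with silica and control overlapping for both. Col6a5 held 0.04, 0.01, 0.11 and 0.02 TPM in controls, 0.09, 0.11 and 0.08 in silica, and 0.31, 2.13, 0.00 and 0.39 in silica_DMSO. The highest 3 Col6a5 values, 2.13, 0.42 and 0.39, came from the 3 thymus-like libraries, and the same libraries ranked first for Col6a4 and Col6a6.

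The smaller classes included the chains whose silica libraries lay lowest against control. Col17a1, a transmembrane collagen that anchors epithelial cells to their basement membrane, held 0.40, 0.70, 1.11 and 0.68 TPM in controls, 0.16, 0.05, 0.67 and 0.39 with DMSO, 0.27, 0.23 and 0.16 with silica, and 0.35, 1.21, 0.02 and 0.44 with silica and DMSO. Every silica library lay below every control. Col13a1, a transmembrane collagen of cell contacts, likewise held 18.7, 14.4, 29.1 and 15.4 TPM in controls and 10.3, 6.68 and 4.83 in silica. Its DMSO libraries held 3.37, 1.34, 14.4 and 3.75, and its silica_DMSO libraries 11.9, 0.26, 3.52 and 0.05. Col23a1, the third transmembrane chain, overlapped between control (6.95 to 18.8 TPM) and silica (8.94, 13.1 and 8.54).

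The 2 multiplexins sit in basement membranes, where the ends of their chains can be released as inhibitors of vessel growth. Col15a1 held 1.45, 1.63, 5.18 and 2.91 TPM in controls, 1.81, 1.50, 2.53 and 10.1 with DMSO, 13.5, 4.68 and 2.26 with silica, and 5.23, 24.7, 0.34 and 14.2 with silica and DMSO. Its highest 2 values were the thymus-like silica_DMSO libraries 4 and 6, silica 1 was the third and DMSO 7 the fourth. Col18a1 was spread from 0.37 to 12.3 TPM without such an order. The FACIT chains decorate fibers: Col14a1 held 2.82 to 13.7 TPM in controls and 3.47 to 11.3 in silica, and Col12a1 held 6.68 to 11.6 in controls and 3.65 to 6.01 in silica, which did not overlap on TPM but did on normalised CPM. Col16a1 held 5.74 to 15.5 TPM in controls, 2.05 to 6.0 with DMSO and 5.47 to 9.34 in silica. Col7a1, the anchoring fibril that holds epithelium to the tissue below, held 3.51, 4.25, 2.96 and 1.48 TPM in controls and 0.07, 0.01, 0.48 and 0.38 with DMSO, all below the lowest control, though DMSO 6 lay within the control range on normalised CPM (2.51 against 1.94 to 7.52). Col8a1 and Col8a2, network chains of vessels, stayed at or under 5.40 TPM. Col28a1 stayed at or under 1.37 TPM. Col26a1 was listed at 2.48 TPM in silica 1, but from only 7 counts, while DMSO 4 had the most counts, 23, at 0.21 TPM, so the 2 scales ranked the libraries differently and no order is read from them.

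Silica was compared with control to see what silica did without DMSO. By class, the transmembrane chains had the lowest median in silica, carried by Col13a1 and Col17a1, while Col23a1 was at -0.25. Fibrillar chains, led by Col3a1, had higher values that as a class rested on silica 1, though Col3a1 kept its direction, at a smaller value, without that library. No collagen gene passed the test. In the edgeR quasi-likelihood fit of all 15 libraries, 0 of 35 collagens were called at an adjusted p under 0.05, as were 0% of the 17879 genes tested. Col17a1 was the only collagen at an unadjusted p under 0.05, and DESeq2 also called 0 collagens, beside 45 of the 17879 genes. With the 12 libraries edgeR called 0 of 34 collagens and 0.0113% of all genes, and with only the 7 libraries of these groups 0 of 31 and 0.249%. The median log2 fold change of the collagens was -0.19, with 15 above 0 and 20 below, beside 0.00 over all genes and -0.09 over genes of at least 4000 bases. By class, 6 of 8 fibrillar chains lay above 0 (median 0.45), both multiplexins did, 5 of 6 type IV chains lay below 0 (median -0.27), as did 4 of 5 FACIT chains (median -0.78) and 3 of 3 transmembrane chains (median -1.25). Single libraries moved these values. Without silica 1 the collagen median was -0.63, with 7 above 0 and 28 below, and the fibrillar median was -0.16, with 1 above 0 and 7 below. The collagen median was 0.17 without silica 7 (25 above, 12 below), 0.02 without silica 2 and 0.06 without control 4. The type IV median was -0.76 without silica 1 and 0.15 without silica 7, and the transmembrane median stayed between -1.40 and -1.01 whichever silica or control library was left out.

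Single fold changes carried wide errors. Col3a1 was 1.36 ± 0.91 higher on the log2 scale (SE; edgeR adjusted p = 1), and 1.32 ± 0.46 with 12 libraries (adjusted p = 0.651). Without silica 1 the value was 0.69. Col15a1 was 1.37 ± 0.74 higher (adjusted p = 1) and 0.60 without silica 1. Col1a1 was 0.69 ± 0.90 higher (adjusted p = 1) and turned to -0.07 when silica 1 was left out, so its direction rested on that library. Col4a1 was 0.14 ± 0.83 higher (adjusted p = 1) and -0.54 without silica 1.

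On the lower side the values moved less when a library was left out. Col17a1 was at -1.50 ± 0.64 (edgeR adjusted p = 1), at -1.52 ± 0.53 with 12 libraries (adjusted p = 0.647), at -1.40 without silica 1, and between -1.62 and -1.38 when any single library was left out. Col12a1 was at -0.87 ± 0.53 and Col13a1, named after its values were seen, at -1.25 ± 1.21 (both adjusted p = 1). The summed alveolar type 1 markers were also lower in silica, at 1942, 2037 and 1323 TPM against 2748, 2635, 3221 and 3047 in controls. By gene, Ager and Hopx lay below every control in every silica library, while Pdpn, Rtkn2, Aqp5 and Cav1 overlapped with control. The summed fibroblast markers, of the cells that make fibrillar collagen, were at 812, 1509 and 1131 TPM against 1732 to 3341, but without Inmt the other 9 markers overlapped at 484, 399 and 239 against 201 to 772. The activated fibroblast list overlapped as well, at 196, 160 and 146 against 106 to 269. The macrophage list was at 22274, 12469 and 9902 TPM against 4182 to 10059. Their part in the collagen values was not tested.

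On normalised CPM, 1 of 35 collagens, Col3a1, had every silica library above every control, while 5.83% of all genes did. In the other direction 4 of 35, Col13a1, Col17a1, Col9a3 and Col20a1, had every silica library below, while 4.67% of all genes did. Col9a3 rested on few counts, 4, 5 and 5 in silica and 15, 8, 8 and 8 in controls. On TPM 0 of 35 were wholly higher, as 2.72% of all genes were, and 4 of 35 were lower, as 3.07% of all genes were, with Col12a1 in place of Col20a1. These 4 were named after their values were seen.

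**Figure D4:**
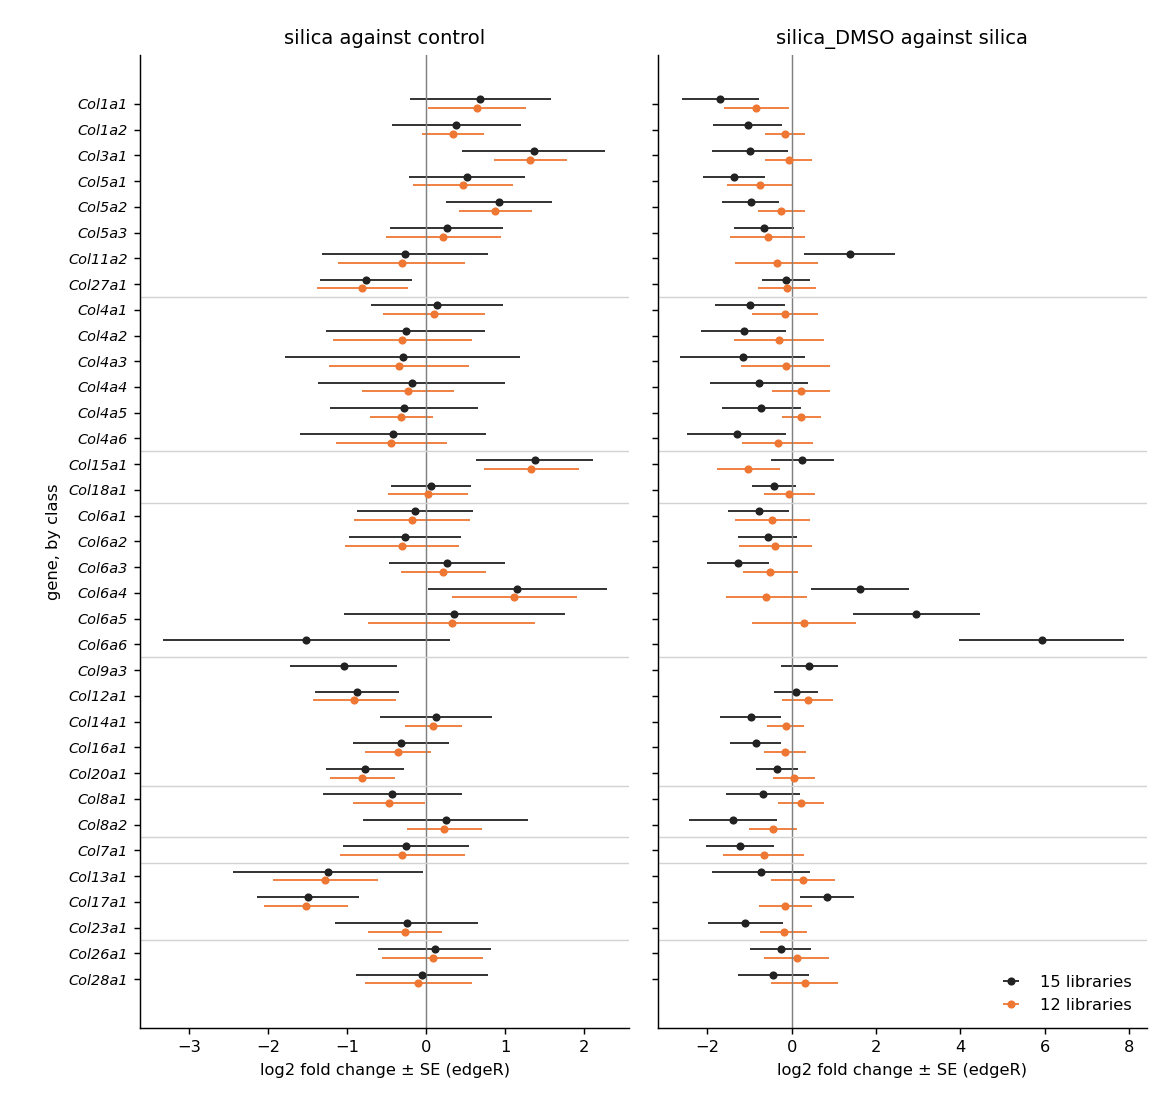
Log2 fold change with SE from edgeR for the 35 collagen genes tested with 15 libraries, silica against control (left) and silica_DMSO against silica (right), with all 15 libraries in black and without the 3 thymus-like libraries in orange. On the left the 2 fits nearly coincide, with Col17a1 at -1.50 and -1.52. On the right most orange points lie closer to 0 than the black ones, with Col6a5 at 0.29 in place of 2.96, while Col1a1 (-0.83) is still well below 0 and Col15a1 (-1.03 in place of 0.25) lies farther from it.

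Setting silica_DMSO beside silica addresses the effect of DMSO in animals that already had silica. With all libraries most collagens were lower in silica_DMSO and a few type VI chains far higher, but both patterns were smaller without the thymus-like libraries. No collagen was called by edgeR (0 of 35, with 0% of all genes), and 1 of 35 had an unadjusted p under 0.05. DESeq2 also called 0 collagens, beside 69 of all genes. The median collagen was at -0.72, with 27 of 35 below 0, beside 0.05 over all genes and -0.12 over genes of at least 4000 bases. All 6 type IV chains and 7 of 8 fibrillar chains lay below 0. Without the thymus-like libraries the median was -0.15, beside -0.02 over all genes, and edgeR again called 0 of 34 collagens and 0% of all genes. All 9 fibrillar chains tested there lay below 0, with a median of -0.35 and Col24a1 lowest at -1.40, a gene that passed the filter there but not with 15 libraries. Without silica 1 as well, the median over the collagens was 0.36. With all other libraries kept, that median was -0.11 without silica 1, -1.32 without silica_DMSO 2 and -0.42 without silica_DMSO 6.

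Col1a1 was at -1.69 ± 0.90 in that comparison (edgeR adjusted p = 0.708), at -0.83 ± 0.77 with 12 libraries, and at -0.11 without silica 1 as well. It was -3.40 without silica_DMSO 2 and -0.93 without silica 1, with every other single library left out in between. Col3a1 went from -0.98 ± 0.90 to -0.07 ± 0.56 with 12 libraries, and Col4a1 from -0.98 ± 0.83 to -0.15 ± 0.78. The 2 silica_DMSO libraries that remain, 2 and 5, differed widely from each other, with Col1a1 at 32.0 and 0.94 TPM.

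Col6a5 was 2.96 ± 1.51 higher in silica_DMSO (edgeR adjusted p = 0.708), at 0.29 ± 1.24 with 12 libraries and at 1.52 without silica_DMSO 4 alone. Col6a6 had 5, 262, 0 and 50 counts in the silica_DMSO libraries and 2, 0 and 1 in the silica libraries. It passed the filter only through the thymus-like libraries, with at most 6 counts in any other, and was not tested with 12 libraries. The summed counts, 317 and 3, gave a ratio of 75.6 per count of library total (exact 95% binomial interval 25.6 to 369, counting error only). That interval pools libraries as unlike as 262 and 0 counts, so it does not measure a difference between groups. Without the thymus-like libraries the counts were 5 and 3, a ratio of 2.31 (0.45 to 14.9). The fitted log2 change of 5.93 ± 1.96 depends on the prior count of the fit. No collagen had its silica_DMSO libraries all on one side of the silica libraries, either above (0 of 35, with 0.783% of all genes) or below (0 of 35, with 1.39%).

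DMSO without silica was compared with control in the same way. Collagens leaned lower in the DMSO libraries, with the anchoring fibril, type IV and FACIT chains lowest. The median over 35 collagens was -0.95, with 28 below 0, beside 0.14 over all genes and -0.17 over genes of at least 4000 bases. With 12 libraries the median was -0.80, beside -0.04 and -0.47. With an offset for gene length in the fit it was -0.59 with 15 libraries and -0.40 with 12. edgeR called 0 of 35 with 15 libraries (0% of all genes) and 0 of 34 with 12 (0%). With 15 libraries 5 of 35 had an unadjusted p under 0.05. DESeq2 also called 0 collagens, beside 63 of all genes. All 6 type IV chains lay below 0 (median -1.25), as did all 5 FACIT chains (median -1.05). Col7a1 was at -1.73 ± 0.76, Col18a1 at -1.23 ± 0.48 and Col20a1 at -1.14 ± 0.46 (each adjusted p = 0.649).

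The low DMSO values came from particular libraries. DMSO 6, the DMSO library with high long-gene counts and no thymus RNA, held 349 collagen TPM, between control 2 and control 7, and its Col1a1, Col3a1, Col4a1 and Col6a1 all lay within the control range. Col7a1 did not on TPM, at 0.48 against 1.48 to 4.25 in controls, but did on normalised CPM, at 2.51 against 1.94 to 7.52. On normalised CPM no collagen had every DMSO library above every control, as 2.07% of all genes did, and 1 of 35, Col20a1, had every DMSO library below, as 2.09% did. On TPM 2 of 35, Col20a1 and Col7a1, had every DMSO library below, as 2.09% of all genes did. Without DMSO 7 the counts were 2 of 35 on normalised CPM (3.82% of all genes), with Col9a3 joining Col20a1, and 4 of 35 on TPM (4.94%), with Col9a3 and Col27a1 joining. Col9a3 had only 3, 3 and 7 counts in DMSO 1, DMSO 4 and DMSO 6.

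Silica-exposed libraries of both kinds were set against unexposed ones, and the interaction asked whether the silica difference depended on DMSO. Over all 15 libraries the collagen median was 0.04, and edgeR called 0 of 35 collagens and 0% of all genes. There 1 of 35 had an unadjusted p under 0.05, and DESeq2 also called 0 collagens, beside 41 of all genes. Over the 12 the collagen median was 0.25, with 0 of 34 collagens called by edgeR and 0.0908% of all genes. Col15a1, at 1.24 ± 0.51 (adjusted p = 1.00 in edgeR), Col6a4, at 1.59 ± 0.78, and Col17a1, at -0.61 ± 0.42, had the smallest p over 15 libraries. With 12 libraries they stood at 0.77 ± 0.47, 1.17 ± 0.63 and -1.17 ± 0.42, and Col3a1, which then had the smallest p, at 1.04 ± 0.36 (adjusted p = 0.764). For the interaction edgeR called 0 of 35 and 0 of 34 collagens (0% of all genes in both fits), with none of the collagens at an unadjusted p under 0.05. DESeq2 also called 0 collagens there, beside 10 of all genes. Col17a1 was at 1.78 ± 0.85, Col12a1 at 1.16 ± 0.71 and Col6a6 at 3.78 ± 2.30 (each edgeR adjusted p = 1.00). Col17a1 moved to 0.70 ± 0.80 with 12 libraries. Col6a6 passed the filter only through the thymus-like libraries and was not tested with 12.

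Within the 7 libraries of high long-gene counts the exposed and unexposed ones parted for a few chains. On normalised CPM, 3 of 35 collagens, Col3a1, Col15a1 and Col6a4, had all 3 exposed libraries above the 4 unexposed ones, while 7.51% of all genes did. Col13a1 and Col17a1 had all 3 below, while 5.51% of all genes did. Both shares of the collagens on normalised CPM, 8.57% and 5.71%, were close to those of all genes. On TPM 0 of 35 were wholly higher in the 3 exposed libraries, as 5.65% of all genes were. Col13a1 and Col17a1 were again wholly lower on TPM, as 3.68% of all genes were. Over the 12 libraries no collagen parted in either direction on normalised CPM, as 0.61% and 0.0615% of all genes did. Col17a1 normalised CPM was 1.12, 1.30 and 1.66 in the 3 exposed libraries and 2.65, 4.54, 3.69 and 3.66 in the 4 unexposed ones.

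Limma-voom with a weight per library gave a different count of calls from edgeR, for collagens and for all genes alike. For silica against control it called 3 of 35 collagens, all lower, Col12a1 (-1.16), Col13a1 (-1.14) and Col17a1 (-1.39), and 8.22% of all genes. For silica_DMSO against silica it called 28 of 35 and 68.7% of all genes, for DMSO against control 20 of 35 and 39%, for exposed against unexposed 19 of 35 and 61%, and for the interaction 24 of 35 and 60.5%. Its weights ran from 0.108 for silica_DMSO 5 to 10.7 for silica 2. Without the thymus-like libraries, a fit added after the data were seen, it called the same 3 collagens of 34 for silica against control (7.57% of all genes) and 22 of 34 for DMSO against control (48.1%), where DMSO 1 then had a weight of 13.1 and the other 2 DMSO libraries 0.321 and 0.544. It called none of 34 for silica_DMSO against silica (0%), for exposed against unexposed (0.142%) and for the interaction (0%).

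For some chains that assemble into 1 molecule the ratio varied less than the levels, though not in every set of libraries. The same held for Col4a1 to Col1a1, which share no molecule, with an SD of 0.73 on the log2 scale over 15 libraries. Col4a1 and Col1a1 alone had 1.69 and 1.80. Over the 12 libraries the SD was 0.733 for Col4a1 to Col1a1 and 0.745 for Col4a1 to Col4a2. Col6a1 to Col6a2, partners in every type VI molecule, lay between 0.985 and 1.47 in all 15 libraries, with an SD of 0.19 on the log2 scale, while Col6a1 and Col6a2 each had an SD of 1.81 and 1.80. Col4a1 to Col4a2, the pair with the shared start region printed above, lay between 1.22 and 1.39 in the 7 libraries of high long-gene counts (SD 0.08, with 0.65 and 0.64 for the single chains). In the 5 libraries of low long-gene counts it ran from 0.645 in control 1 to 4.93 in silica_DMSO 5, and its SD of 1.09 was no smaller than the 0.97 of Col4a1 alone. In the same 5 libraries the SD was 0.80 for Col1a1 to Col1a2 and 0.87 for Col5a1 to Col5a2, beside 0.67 for Col1a2 and 0.40 for Col5a2 alone. The gene models of Col4a1 and Col4a2 overlap at the starts and the counting is not stated to use strand, so reads there cannot be told apart.

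Col1a1 to Col1a2, the partners of type I, was 0.335 to 0.536 in the 7 libraries and 0.103 in silica_DMSO 5. Col3a1 to Col1a1, type III against type I, was 1.95 to 3.41 in the 7 libraries and 1.33 to 19.1 in the 5. Col4a3 to Col4a4 was 1.72 to 2.52 in the 7, and 0.375 and 0.167 in the thymus-like silica_DMSO libraries, where both chains were near 0. Of the 7 ratios compared, none differed between the 7 exposed and 8 unexposed libraries in an exact two-sided permutation test. The smallest adjusted p of that permutation test was 0.600, where an unadjusted p of 1.55e-04 was the smallest possible. For Col3a1 to Col1a1 the difference was 0.61 on the log2 scale (exact permutation p = 0.211).

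**Figure D5:**
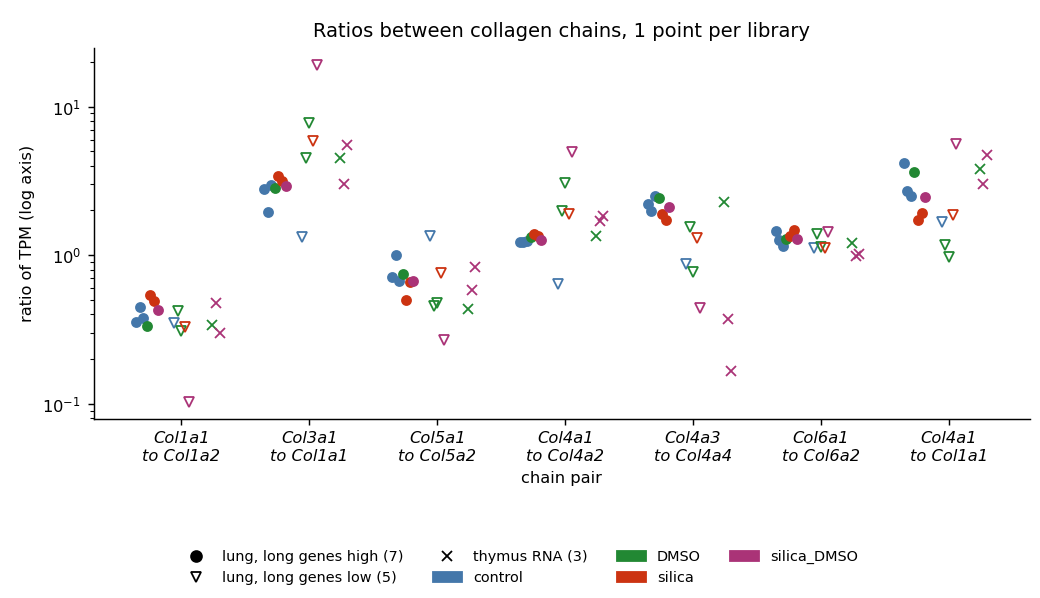
Ratio of TPM between chains of 7 pairs on a log axis, 1 point per library, with the symbol for the kind of library and the colour for the group. Points for Col6a1 to Col6a2 stay between 0.985 and 1.47, and those for Col4a1 to Col4a2 between 1.22 and 1.39 in the libraries drawn as filled circles.

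Over the 12 libraries, likeness between chains was measured as the SD of the log2 ratio of normalised CPM, where a small value means that 2 chains move together. Nearest to Col1a1 was Col5a1 (0.36), which also builds fibrils, then Col15a1 (0.39) and Col6a5 (0.59). Nearest to Col3a1 was Col5a2 (0.46), which is also its neighbour on chromosome 1, with 24614 bases between the 2 gene ends. Col1a2 (0.62) and Col28a1 (0.67) followed. Nearest to Col4a1 was Col18a1 (0.25), another basement membrane chain, then Col4a4 (0.44) and the fibrillar Col5a1 (0.45). Partners in the same molecule, Col1a2 for Col1a1 and Col4a2 for Col4a1, were not among these nearest chains. For Col1a2 the margin was small. On TPM its ratio with Col1a1 had an SD of 0.608 over the 12 libraries. Silica_DMSO 5 lay at a ratio of 0.103 and the rest of the 12 at 0.308 to 0.536. Col6a5 had only 0 to 24 counts in these libraries, and a pseudocount of 0.5 was added, so its rank is not read as moving with Col1a1. The SD of Col1a1, Col3a1 and Col4a1 themselves was 0.92, 0.81 and 0.96. The points share depth, scaling and the gene-length split.

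Genes that act on collagen did not pass the test either. Of 19 enzymes and chaperones that modify and fold the chains, edgeR called 0 higher and 0 lower in silica against control, with a median of 0.05 and 11 above 0. P4ha3, a subunit of prolyl 4-hydroxylase, stood highest at 2.08 ± 0.94 (adjusted p = 1), with 0.08, 0.41, 0.51 and 0.65 TPM in controls and 4.03, 0.99 and 0.78 in silica, silica 1 far above the others. Serpinh1, the collagen chaperone HSP47, was at 0.14 ± 0.65. Of 14 genes tested among the 15 that cleave propeptides and crosslink fibers, 0 were called and the median was -0.04. Lox, which starts crosslinks, held 23.0, 8.70 and 3.32 TPM in silica and 4.32 to 12.03 in controls, so that silica 1 lay above them and silica 7 below. None of 11 collagen receptors (median -0.26) and none of 14 basement membrane partners (median -0.26) was called. In silica_DMSO against silica these 4 lists also had 0 calls, with medians of -0.45, -0.71, -0.70 and -0.61, and of -0.06, -0.22, 0.06 and 0.07 with 12 libraries.

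The thymus-like libraries had a collagen pool of their own. Type VI took 40.1% and 32.3% of collagen TPM in silica_DMSO 4 and 6, and multiplexins 17.6% and 24.6%, while in the 12 lung libraries these classes took at most 21.9% and 3.06%. In DMSO 7 the type VI share, 20.1%, lay within the range of the 12, and the multiplexin share, 8.47%, lay above it. Col2a1, the cartilage fiber chain, had 9, 15 and 14 counts in the 3 libraries and 0 to 2 elsewhere. Transmembrane Col13a1 was at 0.26 and 0.05 TPM in silica_DMSO 4 and 6. The basal epithelium list summed to 74.6, 316 and 174 TPM in the 3 and to 0.14 to 1.51 elsewhere, and the cartilage list to 3.33, 8.79 and 4.34 against 0.05 to 0.69. Their part in the collagen values was not tested.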

How the data were processed

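RNA-seq of mouse lung gave 15 libraries. The deposited table holds expected counts and TPM per gene, with gene length as another column, per the file headers. Bowtie 0.12.2 and the build mm8 appear in the submitters' processing notes, and which program made the estimates is not given here. A further 8 per-group mean columns were not used. Expected counts were rounded. edgeR 4.0.16 (quasi-likelihood, robust, TMM, filterByExpr with a minimum count of 10 and total of 15) was fitted to all 15 libraries with 1 term per group, and p-values were adjusted by Benjamini-Hochberg over 17879 genes. DESeq2 1.42.0 and limma 3.58.1 (voom with quality weights, and trend on log2 TPM), a gene-length offset, other filters and each library left out were alternatives. The scripts were tested on simulated data. The 44 genes and all lists were chosen with earlier results of these data known. Fold changes were named for a fixed set of main chains where a statement rested on them, for the 3 collagens of smallest p in each comparison and for collagens called in any fit, the last by count where many. Same-numbered libraries did not deviate together (4 of 13 pairs over r = 0.1, range -0.49 to 0.27), so numbers were not used as pairs. Fits ran in R 4.3.3, figures in Python 3.11.15 with matplotlib 3.10.9.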

Additional observations from a re-analysis of the deposited data

Results flagged for a closer look

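Within groups of 4 libraries, 11 of 153 values checked had 1 library far from the other 3 by Dixon's criterion, where chance alone gives about 1 in 20. Of these, 6 were in DMSO 7, one of the thymus-like libraries, on log2 normalised CPM. Col15a1 was high there at 4.165, against 2.914 to 3.108 in the other DMSO libraries, as was Col6a6 at 1.551, against -0.7787 to -0.6505. Col1a2 was low at 5.688 (others 7.441 to 7.625), Col5a2 at 3.873 (4.946 to 5.159), Col14a1 at 3.205 (4.303 to 4.525) and Col8a2 at 2.043 (4.079 to 4.379). In control 1, which had few long-gene counts, Col9a3 was high at 0.4654 (others -0.2238 to -0.1879), the summed hexagonal network chains were low at 1.333 on log2 TPM (2.703 to 2.954) and the log2 ratio of Col4a1 to Col4a2 was low at -0.6326 (0.2843 to 0.3128). Col13a1 in control 4 was high at 5.688 (4.854 to 4.949). The log2 ratio of Col5a1 to Col5a2 was high in DMSO 6 at -0.4195 (-1.198 to -1.075).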

How the results depend on the processing

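edgeR, DESeq2 and limma-trend called 0 collagens in all 5 comparisons, and edgeR also with each library left out. Of all 17879 genes, DESeq2 called 45, 69, 63, 41 and 10 (silica, silica_DMSO against silica, DMSO, exposed, interaction). In that order limma-voom with quality weights called 3, 28, 20, 19 and 24 collagens. Without the thymus-like libraries, an alternative chosen after seeing the data, limma-voom called 3 and 22 collagens for silica and DMSO. The cause was not tested. With the replicate block the calls stayed at 0 and Col4a1 in silica against control was -0.12. The collagen median in DMSO against control was -0.40 with a gene-length offset and 12 libraries, and that of the interaction was -0.57 under limma-voom. Over single libraries left out, the medians ran from -0.63 (without silica 1) to 0.17 for silica, -1.32 to -0.11 for silica_DMSO against silica, -1.32 to -0.80 for DMSO, -0.35 to 0.28 for exposed and -0.35 to 0.97 for the interaction. Directions turned for these values. In silica against control, Col1a1 ran from -0.068 without silica 1 to 1.07 without silica 7 and was -0.082 without silica 1 and the thymus-like libraries. Col4a1 ran from -0.54 to 0.52 without the same 2 libraries in turn, and was -0.55 without the 4, -0.08 without control 1, -0.14 and -0.17 under limma-voom with 15 and 12 libraries, and -0.045 and -0.051 under limma-trend with pseudocounts of 1 and 0.1. In silica_DMSO against silica without the thymus-like libraries, Col3a1 was 0.57 without silica 1, 0.43 under limma-voom and 0.43 with the length offset, Col4a1 was 0.49 without silica 1 and 0.069 with the offset, and Col6a5 was -0.31 under limma-voom. The exposed minus unexposed log2 ratio of Col1a1 to Col1a2 ran from -0.20 to 0.19 (without silica_DMSO 5). That of Col6a1 to Col6a2 ran from -0.071 to 0.026 over single libraries left out, at 0.0067 without control 2, 0.026 without silica_DMSO 4 and 0.017 without silica_DMSO 6, and was 0.081 without the 3 thymus-like libraries. The biological coefficient of variation over the 15 libraries was 0.666.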
